A study of Mus musculus with 6 samples.

Results

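Regulators of G protein signalling, the RGS proteins, are described here through 9 genes measured in mouse leukaemia cells: Rgs1, Rgs2, Rgs3, Rgs10, Rgs12, Rgs14, Rgs16, Rgs18 and Rgs19. They are 9 of the 22 RGS genes on the array and 9 of 22180 genes in all. The genes were named as a family with the fall of Rgs2 already known, so its p-value is no independent support for that fall. The probe set of each gene was chosen by its measured intensity, as the one with the highest mean over the 6 arrays among probe sets with a single gene symbol, and of the 9 genes only Rgs2 had more than 1 to choose from. Levels are given as a description, and p-values come from a fit over all 22180 genes.

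The 3 Evi1 Tg arrays and the 3 WT arrays all measured untreated acute myeloid leukaemia cells of the C57BL/6J background that carried MLL-AF9, a fusion oncogene, in both groups. The Evi1 Tg leukaemias differed by an Evi1 transgene, Evi1 being a zinc finger transcription factor made from the gene Mecom. For each array 10000 green fluorescent leukaemia cells were sorted without further fractionation. The sources used here give neither the promoter and form of the transgene nor the age of the mice. Nothing in the labels ties the arrays of a group to different mice, and the p-values then cover only array-to-array spread, which may be technical.

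A G protein-coupled receptor acts by loading its partner G protein with GTP, and the signal lasts until the alpha subunit of that G protein has hydrolysed it. RGS proteins bind the active alpha subunit, speed up this hydrolysis and so shorten signals from receptors for chemokines, prostaglandins, purines and similar ligands. In myeloid cells they are best known for tuning chemokine-driven movement, and in platelets for restraining activation. Members differ in the alpha subunits they prefer and in the domains that flank the RGS domain.

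Median intensities of the 6 arrays lay between 51.6 and 55.4 on a linear scale, and Pearson correlations across genes, which are not independent replicates, lay between 0.972 and 0.992. All 14 listed myeloid markers, among them Itgam, Spi1 and Cd33, lay above the background intensity of 70.7, which is the 90th percentile of 64 measured genes that blood cells do not use. Of markers of other cell types, those above it were 6 of 11 measured for macrophages, 9 of 11 for neutrophils, 5 of 11 for mast cells, basophils and eosinophils, 5 of 8 for megakaryocytes and platelets, 3 of 9 for B and plasma cells, 1 of 10 for T and NK cells (Nkg7) and 1 of 6 for erythroid cells (Tfrc). Of the 14 myeloid markers, 4 were higher in Evi1 Tg without overlap and 2 lower, against 7.08% and 7.47% of all genes. Higher were Mpo (log2 difference 2.80, means 860 in Evi1 Tg and 138 in WT), Kit (1.22), Meis1 (0.85) and Elane (0.44). Lower were Csf2ra (-0.49) and Ptprc (-0.39). Of macrophage markers, Adgre1 was lower (-1.13) and Cd68 higher (0.64) without overlap. None of these had a limma adjusted p under 0.05, and their part in the RGS values was not tested. Both Mecom probe sets were below background in all 6 arrays, with means of 38.6 in Evi1 Tg and 37.0 in WT for the brighter one, so the transgene could not be checked here. In genes of G2 and mitosis WT 3 resembled the Evi1 Tg arrays, and WT 2 stood apart in neutrophil, interferon and inflammation genes.

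Rgs2 was the RGS gene that passed the test. RGS2 is a small protein of the R4 subfamily that acts preferentially on the Gq alpha subunit and can also restrain adenylyl cyclase, and in many cells its gene is switched on quickly by rising cAMP. Its probe set had intensities of 211, 190.1 and 210.4 in Evi1 Tg 1, 2 and 3, against 571, 511 and 522 in WT 1, 2 and 3. All Evi1 Tg arrays lay far below all WT arrays, with no overlap and little spread on either side. The mean was 204 ± 11.8 in Evi1 Tg and 535 ± 31.9 in WT (SD, n = 3 each), which left 0.381 of the WT level on the log2 mean. Rgs2 fell by 1.39 on the log2 scale (SE 0.0883, 95% interval -1.60 to -1.18, limma with Benjamini-Hochberg adjusted p over all genes = 0.00478) and was the gene with the 4th smallest p of all. An exact two-sided permutation test of 3 against 3 arrays gave p = 0.1, the smallest it can give. Any gene whose groups do not overlap must give this value, as Rgs12 and Rgs18 also did, so it adds no support particular to Rgs2.

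This made 1 of the 9 RGS genes lower and 0 higher by limma's adjusted p, where 0.104% of all genes were lower and 0.00902% were higher. Without adjustment, 2 of the 9 (Rgs2 and Rgs18) had a p under 0.05, both lower, against 10.3% of all genes, of which 5.8% were lower and 4.5% higher. The call on Rgs2 was lost without Evi1 Tg 2 (limma adjusted p = 0.0506, difference -1.34) and in a test without moderation across genes (adjusted p = 0.202). A further Rgs2 probe set read 31.4, 28.7 and 30.9 in Evi1 Tg and 32.2, 30.0 and 29.0 in WT, below background on every array, and with both probe sets averaged the difference was -0.70 (limma adjusted p = 0.0547).

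**Figure D1:**
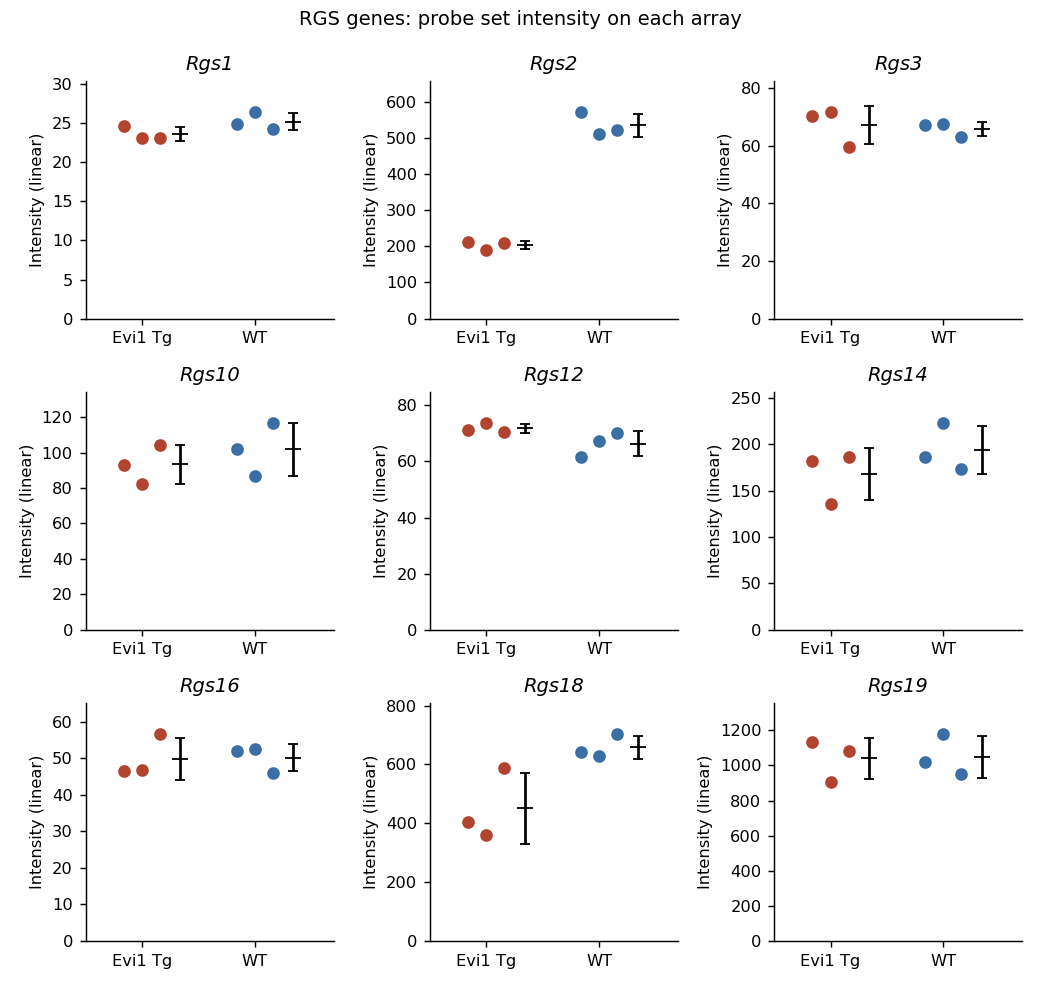
Probe set intensity (linear scale, each panel with its own axis from 0) of the 9 RGS genes on each array, with Evi1 Tg arrays 1 to 3 in red on the left and WT arrays 1 to 3 in blue on the right; the black mark is the mean and its bar the SD (n = 3). Rgs2 separates the groups widely, at 190.1 to 211 in Evi1 Tg and 511 to 571 in WT, while Rgs18 separates them narrowly because Evi1 Tg 3 (588) lies close to the lowest WT array (629).

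The promoter of Rgs2 is shown because it belongs to the member that passed the test, beside that of Rgs10, a member above background that did not pass the test. Both are RefSeq sequences of build GRCm38.p6, the 250 bases before the annotated start, both on the minus strand, at chr1:144004150-144004399 for Rgs2 and chr7:128418173-128418422 for Rgs10. Capitals mark matches on either strand to any of 5 motifs. These are TGACG, the half-site of the cAMP response element; CCAAT, the box of that name; GGGCGG, known as the GC box; AGATAA, a motif of GATA factors; and GACAAGATA, a motif of the first zinc finger domain of EVI1. The GATA and EVI1 motifs share letters and can overlap.
Rgs2: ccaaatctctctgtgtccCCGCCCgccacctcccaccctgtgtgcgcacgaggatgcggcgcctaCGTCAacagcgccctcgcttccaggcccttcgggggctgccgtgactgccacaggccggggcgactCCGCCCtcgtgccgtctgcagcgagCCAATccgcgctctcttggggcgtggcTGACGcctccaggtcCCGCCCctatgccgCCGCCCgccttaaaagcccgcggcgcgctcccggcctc
Rgs10: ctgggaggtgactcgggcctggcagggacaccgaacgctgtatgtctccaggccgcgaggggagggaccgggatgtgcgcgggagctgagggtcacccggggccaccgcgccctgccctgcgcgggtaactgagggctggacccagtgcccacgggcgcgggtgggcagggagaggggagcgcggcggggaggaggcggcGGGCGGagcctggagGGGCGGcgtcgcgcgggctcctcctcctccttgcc
The Rgs2 window held the cAMP half-site at 185 and 67 bases before the start (first base of each match), the CCAAT box at 94 bases and the GC box at 232, 119, 52 and 38 bases. The Rgs10 window held the GC box at 50 and 35 bases and none of the other motifs. No window was found for Rgs1, Rgs14 and Rgs18. Among the other members with windows, which did not pass the test, a window of Rgs12 held the cAMP half-site at 82 bases. The window of Rgs16 held the CCAAT box at 68 bases. The GC box was also in windows of Rgs3, Rgs12, Rgs16 and Rgs19. Of 32851 windows of the same length over all genes, 17.8% held the cAMP half-site, 33.8% the CCAAT box, 32.7% the GC box, 9.99% the GATA motif and 0.107% the EVI1 motif. The EVI1 motif was in none of the 10 windows found for 6 of the 9 genes, and the GATA motif was in 1 of them, at Rgs3. A match describes letters and not a site in use, and the absence of a match says only that these letters are not in these windows.

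Rgs18 had the next largest difference and did not pass the test. RGS18 is an R4 protein found mainly in blood cells and best known from megakaryocytes and platelets, where it restrains Gi and Gq signals. Its intensities were 404, 359 and 588 in Evi1 Tg 1, 2 and 3, against 643, 629 and 702 in WT 1, 2 and 3. The groups did not overlap, but Evi1 Tg 3 lay closer to the WT arrays than to the other Evi1 Tg arrays. The difference was -0.58 on the log2 scale (SE 0.180, 95% interval -1.004 to -0.15, limma adjusted p = 0.328), and without Evi1 Tg 3 it was -0.79 (limma adjusted p = 0.0784). The SD within a group on the log2 scale was 0.37 in Evi1 Tg and 0.084 in WT.

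Of 11 megakaryocyte and platelet markers 8 were measured and 5 lay above background, with Itga2b, Tubb1 and Gp6 below it. Their summed intensity ranged from 486 to 592 in Evi1 Tg and from 468 to 857 in WT. Pf4, a platelet chemokine, had 52.7, 76.4 and 74.1 in Evi1 Tg and 155, 208 and 70.5 in WT. WT 3, with the highest Rgs18 of all arrays, had the lowest sum of these markers, and their part in the Rgs18 values was not tested. In such bulk samples fewer cells that express a gene and less RNA per cell cannot be told apart.

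Rgs1, Rgs3 and Rgs16 are the remaining R4 genes of the set, and all had means below the background intensity. RGS1 and RGS16 are inducible inhibitors of chemokine receptor signals in leukocytes, and RGS3 acts on Gi and Gq. Rgs16 had 46.5, 46.8 and 56.6 in Evi1 Tg, against 52.1, 52.5 and 46.1 in WT, so that the groups overlapped (difference -0.012, 95% interval -0.27 to 0.25). Rgs3 had 70.4, 71.8 and 59.6 in Evi1 Tg, against 67.3, 67.5 and 63.1 in WT, also with overlap (difference 0.024, 95% interval -0.21 to 0.26). Rgs1 had 24.6, 23.1 and 23.2 in Evi1 Tg and 24.9, 26.4 and 24.3 in WT, and 1 Evi1 Tg array lay among the WT arrays (difference -0.093, 95% interval -0.28 to 0.095). At such intensities a change in RNA is compressed, and these intervals bound the change in signal only.

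Rgs10, Rgs12 and Rgs14 form the R12 subfamily. RGS10 is a compact protein that acts on Gi, RGS12 is a large protein with several further domains, and RGS14 carries a second site that holds Gi alpha in its inactive form. Rgs14 had 182, 135.7 and 186 in Evi1 Tg 1, 2 and 3, against 186, 223 and 173 in WT 1, 2 and 3. Evi1 Tg 2 was the lowest and WT 2 the highest of all arrays, with the other arrays between 173 and 186 in either group. The difference was -0.21 (SE 0.155, limma adjusted p = 0.740), and without Evi1 Tg 2 it was -0.064. Rgs10 had 93.1, 82.3 and 104 in Evi1 Tg, against 102, 86.5 and 117 in WT, with wide overlap (difference -0.12, 95% interval -0.45 to 0.21, limma adjusted p = 0.859), and its difference was -0.017 without WT 3 and -0.23 without WT 2. Rgs12 had 71.2, 73.6 and 70.5 in Evi1 Tg, against 61.6, 67.3 and 70.3 in WT. All 3 Evi1 Tg arrays lay above all WT arrays, though the gap was smaller than the spread within WT (difference 0.11, 95% interval -0.084 to 0.31, limma adjusted p = 0.740), and the mean over all arrays (69.1) lay just under background.

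Rgs19, the RZ subfamily member of the set, encodes a protein anchored to membranes that acts on Gi-type alpha subunits. It had intensities of 1132, 907 and 1080.2 in Evi1 Tg 1, 2 and 3, against 1018, 1178 and 949.6 in WT 1, 2 and 3. The groups overlapped throughout, with means of 1040.0 ± 118 in Evi1 Tg and 1048 ± 117 in WT (SD, n = 3 each). The difference was -0.012 on the log2 scale (95% interval -0.30 to 0.28, limma adjusted p = 0.989). A change of the size seen for Rgs2 lies outside this interval.

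**Figure D2:**
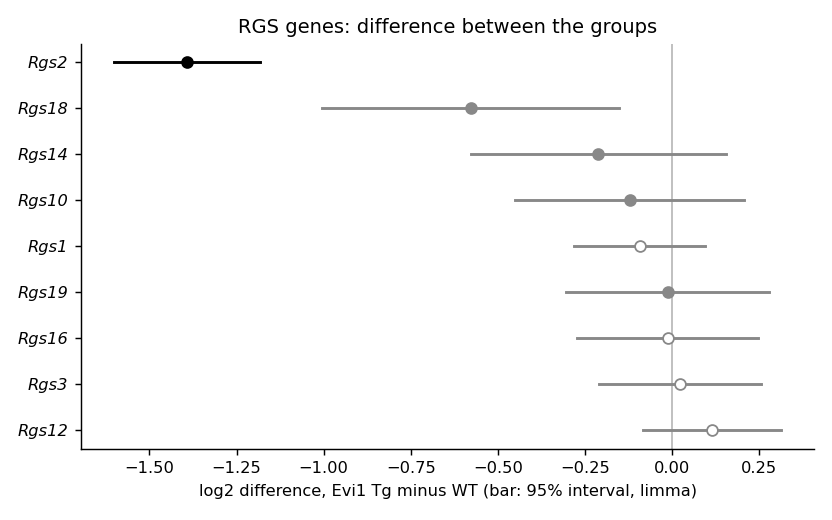
Difference between the groups (log2, Evi1 Tg minus WT; horizontal axis) for each RGS gene, with the 95% interval of limma's fit over all genes. Black marks limma's adjusted p under 0.05, grey a larger one, and open circles genes whose mean lay below background. Only Rgs2 (-1.39) is black, and the interval of Rgs18 (-1.004 to -0.15) is the only other one that leaves out 0.

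Taking the 9 genes as a list, 7 had a difference below 0, or 77.8%, against 46.5% of all genes. The median difference was -0.093, against 0.012 over all genes. Rgs2 is among the 7 and its fall was known when the list was named, so the share is no test of the family. Of the 7, Rgs16 and Rgs19 (both -0.012) changed sign in 4 and 3 alternatives, and Rgs1 and Rgs16 lay below background. The groups did not overlap for 3 of the 9, with Rgs2 and Rgs18 lower and Rgs12 higher, where 7.47% of all genes were separated downward and 7.08% upward. Over the 6 arrays the Pearson correlation of log2 values was 0.86 for Rgs14 with Rgs19 and 0.82 for Rgs2 with Rgs18, as a description over arrays of 2 groups.

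The remaining 13 RGS genes on the array gave 0 calls in either direction (limma's smallest adjusted p = 0.680, and 0 with an unadjusted p under 0.05). Their differences ran from -0.25 to 0.11, with a median of 0.026. Rgs9 and Rgs11, of the R7 subfamily best known from neurons and the retina, were the 2 above background, with means of 112.3 and 76.4. Of the 64 genes that set the background 7 also lay above it, Acta1 with a mean of 115.9, so such signals may not be expression. Rgs9 had 99.5, 92.6 and 109 in Evi1 Tg, against 128, 163 and 81.3 in WT, so that its groups overlapped (difference -0.25, SE 0.238). Rgs11 had 79.2, 85.8 and 72.4 in Evi1 Tg, against 79.1, 73.8 and 68.2 in WT (difference 0.10, SE 0.100). The other 11 lay below background, so that little can be said of them.

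Rgs2 lies in a run of RGS genes. In the RefSeq table of mouse assembly GRCm38.p6, Rgs2, Rgs13, Rgs1, Rgs21 and Rgs18 follow one another on chromosome 1 with no other protein-coding gene between them. Rgs13, the direct neighbour of Rgs2, read 23.3, 24.0 and 27.8 in Evi1 Tg and 26.4, 24.5 and 23.2 in WT (difference 0.015). Rgs21 read 28.6, 26.5 and 26.3 in Evi1 Tg and 24.4, 25.9 and 28.3 in WT (difference 0.050). Rgs1, Rgs13 and Rgs21 were below background in both groups, so that within this run only its 2 ends, Rgs2 and Rgs18, lay above background. Uchl5, which flanks the run next to Rgs2 and encodes a deubiquitinase, had 948, 1139 and 1391 in Evi1 Tg, against 809.8, 652 and 1882 in WT, with overlap (difference 0.20, SE 0.378, limma adjusted p = 0.925). Brinp3 on the far side was below background.

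The partners of RGS proteins were read from lists of G protein signalling genes. Of 13 G protein alpha subunit genes 0 passed the test, and their median difference was 0.046. Gnaq, the alpha subunit on which RGS2 preferentially acts, had 649, 661 and 767 in Evi1 Tg, against 1137, 905 and 829 in WT. Its groups did not overlap, and it did not pass (difference -0.46, SE 0.137, limma adjusted p = 0.312). Gnai2, the main Gi alpha subunit of leukocytes, had 2407, 2600 and 2455 in Evi1 Tg, against 2277, 2251 and 2193 in WT (difference 0.15, SE 0.0765, limma adjusted p = 0.575). Gna15, a Gq-family subunit of blood cells, had a difference of 0.30 with overlapping groups, and Gnaz, of the Gi family, one of 0.31 below background.

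Among 13 of 15 listed beta and gamma subunit genes that were measured, 0 passed and the median difference was 0.014. Gngt2 (0.46) and Gnb4 (0.26), both below background, and Gng2 (0.33) and Gng5 (-0.27) had the smallest p. Of 6 measured receptor kinases and arrestins, proteins that silence receptors upstream of G proteins, 0 passed and the median was -0.27. Arrb1, which encodes beta-arrestin 1, had 641, 571 and 614 in Evi1 Tg, against 901, 829 and 682 in WT, without overlap (difference -0.39, SE 0.120, limma adjusted p = 0.318). Grk3, a receptor kinase, had 93.0, 86.6 and 45.4 in Evi1 Tg, against 43.9, 42.0 and 39.1 in WT, and its Evi1 Tg 3 value lay next to WT (difference 0.78, SE 0.260, limma adjusted p = 0.362), with a mean below background. Grk5 had a difference of -0.48 and Grk4, below background, one of -0.24.

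Of 22 measured effectors, the enzymes on which G proteins act and their targets, 0 passed and the median was -0.10. The regulatory subunit of protein kinase A Prkar2b had 766, 752 and 538 in Evi1 Tg, against 1385, 923 and 939 in WT, with no overlap (difference -0.65, SE 0.203, limma adjusted p = 0.328). The adenylyl cyclase Adcy9 had 123, 87.4 and 99.3 in Evi1 Tg, against 139, 163 and 136 in WT, also without overlap (difference -0.51, SE 0.144, limma adjusted p = 0.272). Adcy4 (0.20) and Plcb1 (-0.28), both below background, were the others among the 4 with the smallest p.

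Of the lists of G protein signalling genes, that of receptors held a called gene other than Rgs2. The 31 measured receptors of myeloid cells had a median difference of -0.15. Of them 1 was lower and 0 were higher, against 0.104% and 0.00902% of all genes. That receptor was Ptger4, through which prostaglandin E2 raises cAMP, at 107, 115 and 108 in Evi1 Tg, against 224, 273 and 217 in WT (difference -1.11, SE 0.109, limma adjusted p = 0.0297). Its groups did not overlap, where 7.47% of all genes were separated downward. C5ar1, the receptor for the complement fragment C5a, had 157, 142 and 170.0 in Evi1 Tg, against 264, 238 and 199 in WT, without overlap and without passing (difference -0.58, SE 0.127, limma adjusted p = 0.195). Gpr34 (-0.38, below background) and P2ry14 (-0.99, with overlap) were the other receptors with the smallest p.

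RGS-like domain genes and the partners and chaperones of RGS and G proteins gave 0 calls among 9 and 8 measured genes, with medians of -0.073 and -0.079. Arhgef11 had the smallest p of the RGS-like list, at 174, 153 and 144 in Evi1 Tg, against 233, 175 and 207 in WT, without overlap (difference -0.38, SE 0.131, limma adjusted p = 0.374). Akap10, an anchor of protein kinase A, had groups that did not overlap either (-0.14), while Axin1, a scaffold protein of Wnt signalling (0.24), and Arhgef1 (-0.098) had groups that did. Among partners and chaperones the smallest p belonged to Gpsm1 (0.23), a modulator of Gi alpha, to Rgs7bp (-0.17, below background), to Gnb5 (-0.15), the obligate partner of R7 proteins, and to Gpsm2 (0.36), and of these 4 only Gnb5 had groups without overlap. Of 21 immediate early genes, the class of quickly induced genes to which Rgs2 is often counted, 0 passed and the median was -0.050. Btg2 (-0.54), Dusp1 (0.29), Dusp2 (0.24) and Klf6 (-0.14) had the smallest p among them, with signs on both sides of 0.

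**Figure D3:**
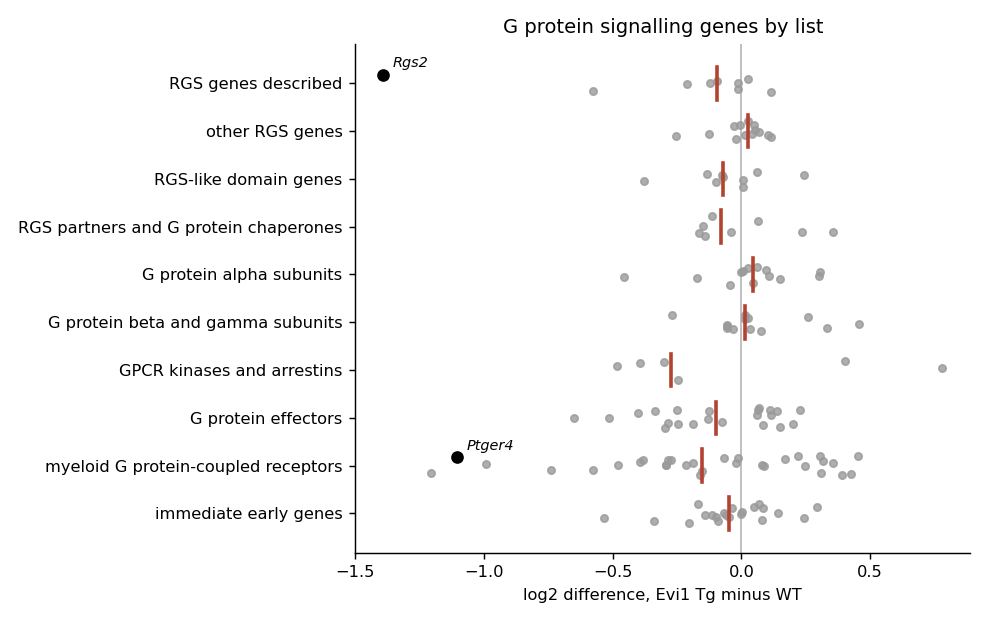
Difference between the groups (log2, Evi1 Tg minus WT; horizontal axis) of every measured gene in 10 lists of G protein signalling and immediate early genes; each point is a gene, shifted at random up or down for legibility, and the red bar is the list's median. Large black points, Rgs2 (-1.39) and Ptger4 (-1.11), had a limma adjusted p under 0.05, and the medians of all lists lie between -0.27 and 0.046.

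Rgs2 was set array by array beside gene lists that differed between single arrays or between the groups. The G2 and mitosis genes had median deviations from their 6-array mean of 0.25, 0.28 and 0.43 in Evi1 Tg 1, 2 and 3, against -0.49, -0.68 and 0.28 in WT 1, 2 and 3. Of 19 measured, 19 had a difference above 0 (median 0.575), where 46.5% of all genes had one below 0. In limma's test 0 passed, and 10 had an unadjusted p under 0.05, all higher, against 4.5% of all genes. The groups were separated upward for 3 of the 19, against 7.08% of all genes. Rgs2 read 522 in WT 3 and 511 in WT 2, and without WT 3 its difference was -1.41. Interferon response genes had -0.25, -0.22 and -0.34 in Evi1 Tg, against 0.15, 0.59 and 0.084 in WT, and inflammation genes -0.28, -0.0080 and -0.12 in Evi1 Tg, against 0.035, 0.43 and -0.0050 in WT. Without WT 2, where both lists were highest, the difference of Rgs2 was -1.42. The interferon medians of the other arrays still separated the groups, so leaving out WT 2 does not remove the difference in that list. Of 17 measured interferon genes 0 passed limma's test, and 9 had an unadjusted p under 0.05, all lower, against 5.8% of all genes. The difference was below 0 for 15 and above 0 for 2, where 46.5% of all genes had one below 0. The groups were separated downward for 9 of the 17, against 7.47% of all genes. Only 10 of the 17 lay above background, and Isg15, Mx2 and Rsad2, which are among the 9, lay below it. Markers of mast cells, basophils and eosinophils had summed intensities of 532, 505 and 595 in Evi1 Tg, against 625, 1600 and 987 in WT. Of 11 measured, 10 had a difference below 0 (median -0.33), against 46.5% of all genes. None of the 11 passed limma's test, and 4 had an unadjusted p under 0.05, all lower, against 5.8% of all genes. Hdc, the histamine-forming enzyme, had 40.5, 40.4 and 42.1 in Evi1 Tg, against 80.8, 274 and 99.9 in WT. Cpa3 had 26.3, 29.9 and 26.1 in Evi1 Tg, against 25.1, 621 and 239 in WT, so that WT 1 lay below the Evi1 Tg arrays. The groups were separated downward for 3 of the 11, against 7.47% of all genes. Ccr3 and Fcer1a were below background on every array. The part of cell cycle, interferon and inflammation genes and of these cells in the Rgs2 difference was not tested.

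The median of neutrophil markers was lowest and highest on the same arrays as Rgs14 and Rgs19, though the markers differed among themselves. All 11 markers were measured and 9 lay above background, with Ltf and Retnlg below it. Ly6g, Camp, Ngp, Mmp9, Cxcr2, Csf3r and Retnlg were highest in WT 2. S100a8, S100a9 and Ltf were highest in Evi1 Tg 3, and Mmp8 in Evi1 Tg 2. The summed intensity of the 11 ranged from 1723 to 7087 in Evi1 Tg and from 2260 to 9316 in WT. Their median deviation was lowest in Evi1 Tg 2 (-0.91) and highest in WT 2 (1.31). Rgs14 and Rgs19 were also lowest in Evi1 Tg 2 and highest in WT 2, by -0.40 and 0.31 for Rgs14 and by -0.20 and 0.18 for Rgs19. The part of neutrophil-like cells in these values was not tested.

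**Figure D4:**
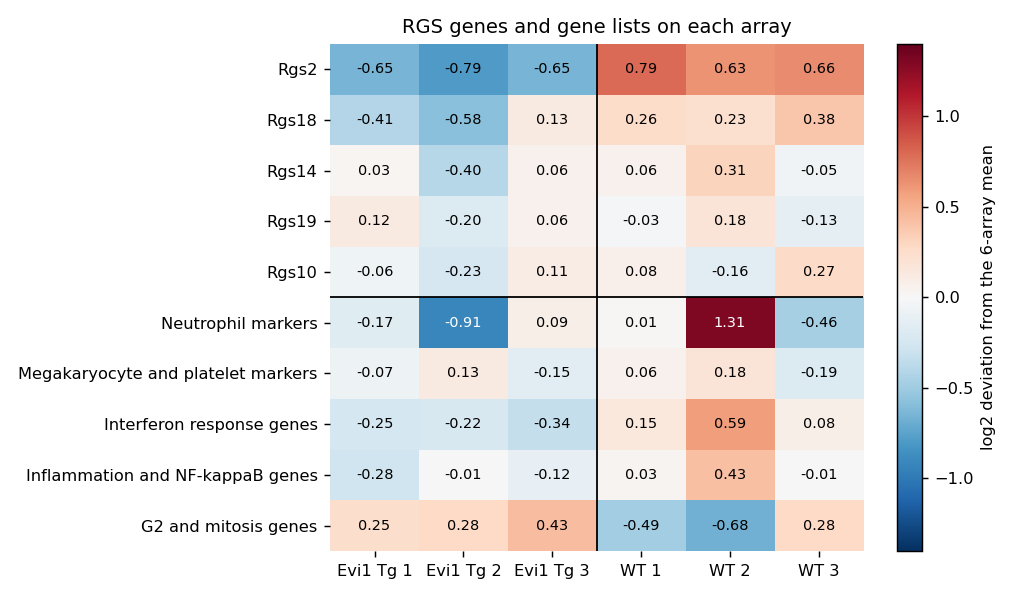
Deviation (log2, coloured and printed in each cell) from the mean of the 6 arrays for the 5 RGS genes above background (upper rows) and the median deviation of 5 gene lists (lower rows); columns are the Evi1 Tg arrays, left of the line, and the WT arrays. Rgs2 runs from -0.79 to -0.65 in Evi1 Tg and from 0.63 to 0.79 in WT, whereas neutrophil markers peak in WT 2 (1.31) and G2 and mitosis genes in WT 3 (0.28) lie within the range of the Evi1 Tg arrays (0.25 to 0.43).

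The genes whose log2 values ran most like a member's were sought among 10308 genes above background, by Pearson's r over the 6 arrays. For Rgs2 they were Ano4 (r = 0.997), a membrane protein of the anoctamin family, Layn (r = 0.997), which encodes layilin, a hyaluronan receptor, and Sp9 (r = 0.995), a zinc finger transcription factor. Layn had 219, 216 and 216 in Evi1 Tg, against 549.9, 499.6 and 532 in WT (difference -1.28). Ano4 (30.8 to 38.8) and Sp9 (49.4 to 58.0) were below background in every Evi1 Tg array and above it on average only through WT. As these genes were chosen for running like Rgs2 over both groups, their lower signal in Evi1 Tg is no separate result, and 103 genes had an r above 0.95 with Rgs2. For Rgs18 the most similar were Hspa4l (r = 0.996), Rev1 (r = 0.995) and Rab11a (r = 0.992), a chaperone, a DNA polymerase and a vesicle GTPase, each highest in WT 3 and lowest in Evi1 Tg 2 as Rgs18 was. For Rgs14 they were Traf3ip3 (r = 0.997), the deacetylase Sirt7 (r = 0.995) and the checkpoint receptor Vsir (r = 0.990), each lowest in Evi1 Tg 2 and highest in WT 2. None of the genes named as similar to Rgs18 or Rgs14 passed the test.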

How the data were processed

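Probe set intensity values of the 6 arrays came as 1 table from the authors. The values, all positive and far above the range of a logarithm, mark a linear scale. Per the labels' protocols, biotinylated cDNA was made from total RNA with a GeneChip WT PLUS reagent kit. The sources used here do not say how background was corrected, arrays normalized and probes summarised. Values were log2 transformed with no pseudocount.

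Of 34351 probe sets, 23521 had 1 gene symbol in the platform's annotation, 1814 had several and 9016 none, and symbols were checked through Entrez identifiers against RefSeq, with 0 renamed. Keeping the probe set with the highest mean left 22180 genes. Cross-hybridisation between family members was not tested. Evi1 Tg and WT (n = 3 each) were compared by a linear model with moderated variances (limma 3.58.1, R 4.3.3), p-values were adjusted over all genes by the Benjamini-Hochberg method, and the threshold was 0.05. The procedure was also run on simulated data with independent noise for each gene. Such data lack the shifts that many genes share on single arrays here, so the run does not cover them. Figures used matplotlib 3.10.9. The number of arrays limits the precision.

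The RGS genes, lists and tests were chosen with earlier results of these data known. Named genes were the 9 members, other RGS genes above background, in each list those that passed or else up to 4 with the smallest p, markers, and the 3 genes most like Rgs2, Rgs18 and Rgs14, the last 2 being the members with the widest spread after Rgs2. C5ar1, Gpr34 and P2ry14, and the chromosomal neighbours of Rgs2, were added after their values were seen. Alternatives tried were a replicate block, each array left out, array weights, no moderation, a moderation with trend and robust settings, a pseudocount of 16, averaged or separate probe sets, quantile normalization, arrays centred on their median, and no dim genes.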

Additional observations from a re-analysis of the deposited data

How the results depend on the processing

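Rgs2 kept its direction in all 15 alternatives that refitted it and its call in 12 of them, including quantile normalization, median centring and the replicate block (difference -1.39, limma adjusted p = 0.0403). It was not called with both probe sets averaged (-0.70, limma adjusted p = 0.0547), where a probe set at background enters the mean. Nor was it called in a test without moderation (-1.39, adjusted p = 0.202) or without Evi1 Tg 2. In these settings 0 of the 9 members were called, with 2, 1 and 2 of them at an unadjusted p under 0.05. Leaving out each array in turn gave Rgs2 differences from -1.42 to -1.34 and 0 to 1 called members. With any array other than Evi1 Tg 2 left out the call on Rgs2 stayed, at a limma adjusted p of at most 0.0464 (without Evi1 Tg 1). The differences near 0 changed sign, with Rgs19 at 0.0009 under quantile normalization and, over the arrays left out in turn, Rgs3 from -0.026 to 0.11, Rgs16 from -0.11 to 0.037 and Rgs19 from -0.081 to 0.083.

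Counts over all genes, 23 lower and 2 higher, moved more. With dim genes left out they were 35 and 7, with array weights 82 and 32, with the pseudocount of 16 they were 9 and 0, and with the replicate block 9 and 0. With trend and robust settings 6 were higher. The test without moderation gave 0 and 0, against 945 and 825 at an unadjusted p under 0.05. Leaving out each array gave 2 to 173 lower and 0 to 383 higher, with 173 and 383 without WT 3 and 2 and 0 without Evi1 Tg 2. The cause was not tested. The labels state no pairing, so the replicate numbers were not taken as pairs. Deviations of same-numbered Evi1 Tg and WT arrays from their group means correlated at 0.189, -0.185 and 0.061. With 3 arrays per group these values cannot show whether pairs exist. Probe sets near background bound what can be said of Rgs1, Rgs3, Rgs9, Rgs10, Rgs11, Rgs12 and Rgs16.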
